A study of Rattus norvegicus with 64 samples.

Results

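The genes described here encode the lecticans, link proteins and tenascins of the brain extracellular matrix. They are the lecticans aggrecan (Acan), brevican (Bcan), neurocan (Ncan) and versican (Vcan), the hyaluronan and proteoglycan link proteins Hapln1 and Hapln4, and the tenascins Tnr (tenascin-R) and Tnc (tenascin-C). They were chosen by name as components of perineuronal nets and of the looser matrix around them, by a rule that used no measured value, although earlier results of these data were known when they were chosen, and all 8 were found among the 17260 genes of the count tables. Ribosomal RNA-depleted total RNA was sequenced from entorhinal cortex of Long Evans rats, an outbred hooded strain, at postnatal days (P) 2, 9, 23 and 45. At each age, layer II (LII) and the deeper layers III to VI (LDeep) were taken separately from the medial and the lateral entorhinal cortex (MEC and LEC). This gave 16 groups and 64 libraries, with 4 libraries per group at P9 and P45, 5 at P2 and 3 at P23. The labels name no transgene, deletion or treatment in any group, and the study's methods describe the dissection of MEC only.

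Perineuronal nets are lattices of matrix that enclose the soma and proximal dendrites of certain neurons, most prominently parvalbumin-expressing interneurons, and they assemble as cortical circuits mature. Hyaluronan chains made at the cell surface form the backbone, lecticans bind hyaluronan through one end and carry chondroitin sulfate chains, link proteins lock the lectican to the hyaluronan, and tenascin-R crosslinks lecticans at their other end. Neurocan, versican and tenascin-C are best known from the juvenile matrix, through which processes grow, whereas aggrecan, Hapln1, Hapln4 and tenascin-R are best known from the condensed nets of the mature brain. Astrocytes, oligodendrocyte lineage cells and neurons can all be sources of these transcripts.

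On the rn6 assembly, all exons of the counted gene model being included in each span, Acan lies at chr1:140762758-140824441, + strand, Bcan at chr2:187359675-187372652, - strand, Ncan at chr16:21050243-21076707, + strand, and Vcan at chr2:18490102-18587340, - strand. The link protein Hapln1 lies at chr2:18354542-18416468, + strand, and Hapln4 at chr16:21081377-21089508, - strand. Tnr lies at chr13:77602249-77678385, + strand, and Tnc at chr5:79790275-79849865, - strand. No exon of these 8 genes overlapped an exon of another gene in the annotation. Each lectican gene has a link protein gene as its neighbour with 0 genes in between, at a distance of 73633 bases for Vcan and Hapln1, 4669 bases for Ncan and Hapln4, 23694 bases for Bcan and Hapln2, and 2853 bases for Acan and Hapln3. Reads were assigned per gene, so splice forms of Vcan, Bcan and Tnc were not told apart.

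Upstream sequences are shown for Tnc and Hapln4, the members with the largest fall and the largest rise between younger and older animals, and for Ncan, the neighbour of Hapln4 that changed the opposite way. They are the 250 bases before the annotated start of each gene, from RefSeq on the GRCr8 assembly, 5′ to 3′ on the gene's own strand, at chr5:82476132-82476381 (- strand) for Tnc, chr16:19335657-19335906 (+ strand) for Ncan and chr16:19375174-19375423 (- strand) for Hapln4. Capitals mark matches, on either strand, to the TATA-box letters TATAAA or TATATAA, the GC-box letters GGGCGG, the CCAAT box, the AP-1 site letters TGANTCA or the E-box letters CAGCTG.
Tnc: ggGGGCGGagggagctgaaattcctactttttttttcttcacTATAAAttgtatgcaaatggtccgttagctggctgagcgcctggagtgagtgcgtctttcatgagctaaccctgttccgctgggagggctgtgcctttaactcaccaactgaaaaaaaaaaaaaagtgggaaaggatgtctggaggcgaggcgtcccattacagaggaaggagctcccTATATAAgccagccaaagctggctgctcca
Ncan: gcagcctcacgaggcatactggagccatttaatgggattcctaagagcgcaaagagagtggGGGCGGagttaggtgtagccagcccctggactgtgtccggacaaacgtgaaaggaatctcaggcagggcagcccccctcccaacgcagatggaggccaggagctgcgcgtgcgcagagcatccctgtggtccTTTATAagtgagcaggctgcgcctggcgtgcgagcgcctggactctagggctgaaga
Hapln4: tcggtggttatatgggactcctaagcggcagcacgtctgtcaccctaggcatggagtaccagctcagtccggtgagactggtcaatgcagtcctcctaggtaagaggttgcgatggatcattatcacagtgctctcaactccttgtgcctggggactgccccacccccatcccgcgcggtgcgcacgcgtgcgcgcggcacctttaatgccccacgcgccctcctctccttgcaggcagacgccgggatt
The Tnc window held TATATAA from 30 to 24 bases before the start, TATAAA from 208 to 203 bases before it and GGGCGG from 248 to 243 bases before it, all on the gene strand. The Ncan window held TATAAA from 57 to 52 bases before the start on the other strand and GGGCGG from 189 to 184 bases before it on the gene strand, and the Hapln4 window held none of the 6 motifs. Among 33469 promoter windows of the same length, 3.42% held TATATAA, 12.9% held TATAAA, 30.5% held GGGCGG, 34.02% held CCAAT, 6.34% held TGANTCA and 11.97% held CAGCTG. These matches are a description of the letters in the windows. All 8 members had a window in the table.

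Total counts per library ranged from 3894334 to 11439143, so that 1 count corresponded to between 0.0874 and 0.257 CPM, the counts scaled to a common library size. LII libraries expressed the 3 layer II neuron markers and LDeep libraries the 6 deep-layer neuron markers at the higher level, with 3 of 3 and 6 of 6 markers passing the test. The summed layer II markers ranged from 667 to 2053 CPM in LII and from 146 to 1399.9 CPM in LDeep. Of the 64 libraries, 5 deviated from their group by more than 0.3 log2 units on average over all genes, namely MEC LII P2 replicates 1 and 3, MEC LDeep P2 replicates 1 and 4, and LEC LDeep P45 replicate 4, whereas the other 59 ranged from 0.0948 to 0.276. The library MEC LII P2 replicate 1 had 1291 CPM of summed GABAergic neuron markers against 135 to 467 CPM in the other 4 of its group, 2105 CPM of astrocyte markers against 982 to 1146 CPM, and 29.3 CPM of meningeal fibroblast markers against 48.7 to 1917 CPM. In the same library Hapln1 stood at 56.5 CPM against 0.712 to 2.703 CPM and Tnr at 314 CPM against 50.6 to 79.8 CPM. The library LEC LDeep P45 replicate 4 had 1399.9 CPM of layer II markers against 572 to 830.2 CPM in the other 3, with Ncan at 586 CPM against 202 to 226 CPM and Tnr at 359 CPM against 112 to 153 CPM. Where leaving out such libraries changed a call or moved a called value by over 1.5 times, the value without them is given beside it. The study calls its replicates biological, and the labels do not say which libraries came from the same animal.

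The first comparison asked how the matrix genes differed between younger (P2 and P9) and older (P23 and P45) rats. All 8 genes differed between the age classes, with Acan, Bcan, Hapln1, Hapln4 and Tnr up-regulated in the older class and Ncan, Vcan and Tnc down-regulated. The sizes spanned from a 107-fold higher level of Hapln4 and a 14.5-fold lower level of Tnc to a 1.27-fold higher level of Acan. In the same comparison 77.3% of all 13092 genes tested passed an adjusted p of 0.05, 38.3% being higher and 39.0% lower in older animals, so that the count of 8 of 8 stands against a high background. For this test the 4 libraries of one age and replicate number were added, which gave 16 sums. Adjusted p-values come from the quasi-likelihood test of edgeR with Benjamini-Hochberg (BH) adjustment over all genes, and LFC is the log2 fold change with its standard error (SE). In bulk tissue, fewer cells of a type and less RNA per cell cannot be told apart.

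**Figure D1:**
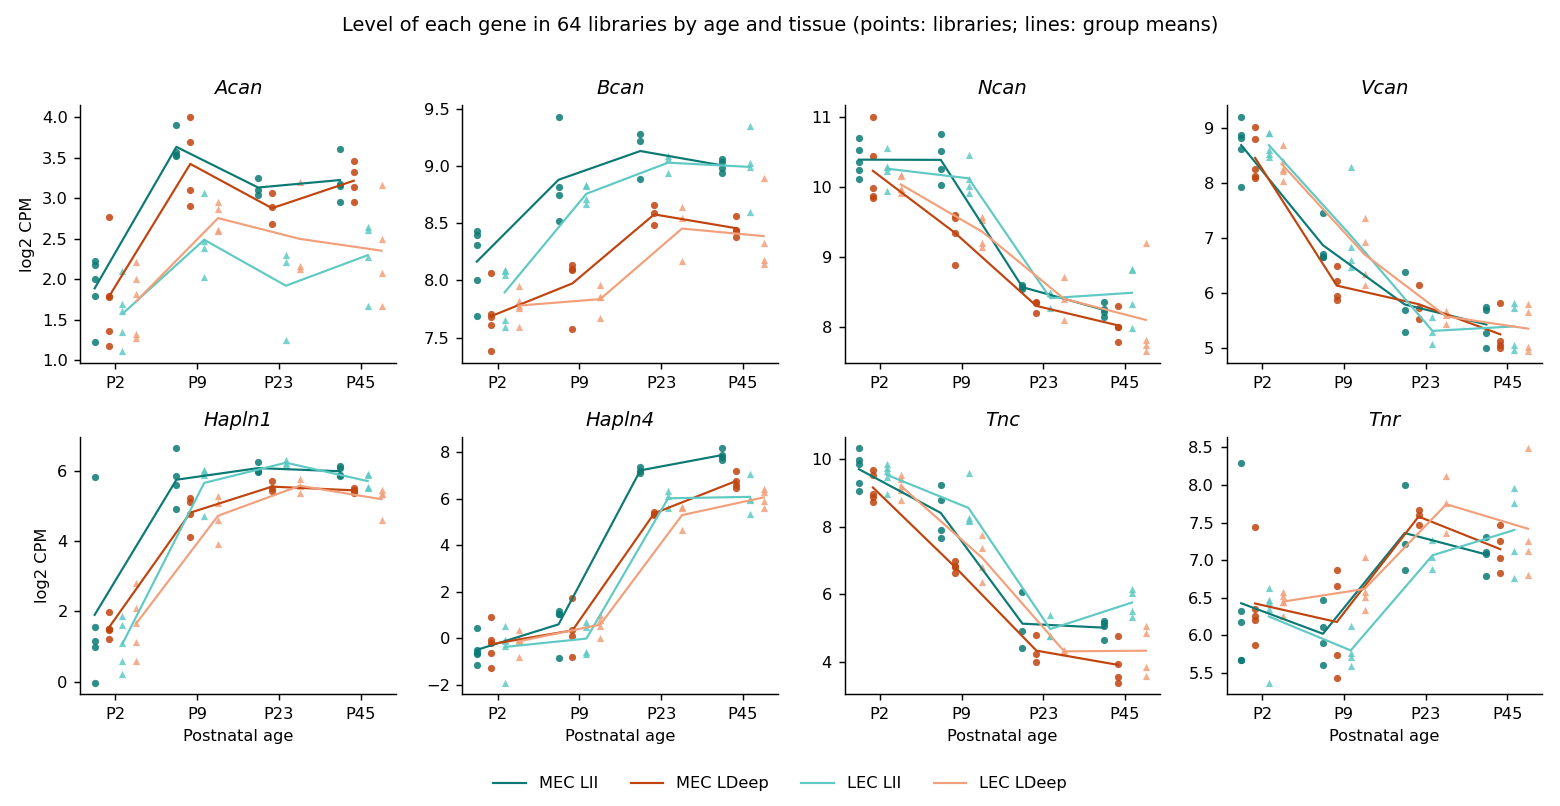
The log2 CPM of each gene is plotted against postnatal age, with a panel per gene and a scale per panel, where points are the 64 libraries (circles for MEC, triangles for LEC), colours are the 4 tissues and lines join group means. In each of the 4 tissues the means of Ncan, Vcan and Tnc at P23 and P45 lie below those at P2 and P9, Hapln4 goes up after P9 and is highest in MEC LII, and the single high points of Hapln1 and Tnr at P2 are the library MEC LII P2 replicate 1.

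Neurocan, the lectican with the highest level per exon length at P2, fell at both steps up to P23 in the sums. Ncan was at 1153, 1146, 1066, 1476, and 1261 CPM in the 5 sums at P2, 832, 899, 1023, and 940.2 CPM at P9, 347, 355, and 320.4 CPM at P23, and 243, 289, 251, and 409.9 CPM at P45. Every older sum lay below every younger one, and the sums of P2 and P9 did not overlap either. Ncan was 3.33-fold lower in older animals (LFC -1.74 ± 0.11 SE, adjusted p = 2.1e-10), with an LFC of -0.40 ± 0.13 (adjusted p = 0.017) from P2 to P9 and -1.44 ± 0.16 (adjusted p = 1.1e-06) from P9 to P23. In LII libraries the mean level of Ncan was 1296 ± 201 CPM (SD, n = 10) at P2 and 1244 ± 265 CPM (SD, n = 8) at P9. In LDeep it was 1157 ± 341 CPM (SD, n = 10) at P2 and 663 ± 111 CPM (SD, n = 8) at P9. Here n counts libraries of both regions, which share replicate numbers and may not be independent. The LDeep libraries at P2 had a median of 1013 CPM and a maximum of 2043 CPM. Without the 5 deviating libraries, Ncan was already higher in LII at P2 in edgeR (LFC 0.47 ± 0.11, adjusted p = 0.0011). The step within each layer was not tested. The step from P2 to P9 in the sums lost its call without P9 replicate 1, with an adjusted p of 0.057.

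Versican, a lectican with several splice forms and sources both inside and outside the nervous tissue, had most of its fall between P2 and P9. Vcan was at 379.8, 439, 283, 432, and 362 CPM at P2, 89.7, 84.2, 90.4, and 167 CPM at P9, 52.4, 53.96, and 43.5 CPM at P23, and 35.6, 48.4, 31.8, and 47.8 CPM at P45. The 4 sums at P9 were all below the 5 at P2, with P9 replicate 4 the highest of the 4, and all 7 older sums were lower still. Vcan differed by -1.81 ± 0.20 (adjusted p = 2.6e-06) from P2 to P9 and by -1.11 ± 0.23 (adjusted p = 0.00061) from P9 to P23, and it was 4.47-fold lower in older animals overall (LFC -2.16 ± 0.16 SE, adjusted p = 2.1e-09).

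Brevican, a lectican of astrocytes and oligodendrocyte lineage cells, moved the opposite way and by less. Bcan was at 264, 192, 243, 259, and 263 CPM at P2, 307, 344, 418, and 302 CPM at P9, 482, 412, and 444 CPM at P23, and 409.5, 412, 375, and 468 CPM at P45. Older and younger sums overlapped, because P9 replicate 3 reached the range of the older sums, but all P2 sums were below all others. Bcan was 1.49-fold higher in older animals (LFC 0.57 ± 0.081 SE, adjusted p = 6.7e-06), and rose by 0.49 ± 0.11 (adjusted p = 0.0012) from P2 to P9 and by 0.38 ± 0.12 (adjusted p = 0.015) from P9 to P23. The second step lost its call without P23 replicate 1, with an adjusted p of 0.059, and with limma voom (LFC 0.26 ± 0.13, adjusted p = 0.093).

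Aggrecan, the lectican most closely tied to perineuronal nets, had the lowest level of the lecticans per exon length at every age and its highest mean at P9. Acan was at 2.77, 3.54, 2.99, 4.21, and 2.66 CPM at P2, 9.24, 9.28, 8.06, and 8.32 CPM at P9, 6.49, 6.68, and 5.796 CPM at P23, and 6.41, 8.05, 6.01, and 8.08 CPM at P45. All sums at P9 were above all at P2, and the P23 sums lay between them. Acan rose by 1.43 ± 0.14 (adjusted p = 7.7e-07) from P2 to P9 and fell by 0.46 ± 0.16 on the log2 scale (adjusted p = 0.020) from P9 to P23, a call lost without P23 replicate 3 (adjusted p = 0.094). The contrast of older with younger sums, which averages over that peak, came to a 1.27-fold higher level (LFC 0.34 ± 0.11 SE, adjusted p = 0.0076), and the sums of the age classes overlapped.

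The link proteins both rose, at different ages. Hapln4, a brain link protein known to bind brevican, was low until P9. It was at 0.647, 0.523, 0.785, 0.741, and 0.454 CPM at P2, 1.15, 1.58, 1.46, and 0.524 CPM at P9, 70.6, 70.9, and 78.2 CPM at P23, and 109.5, 139, 99.3, and 128 CPM at P45. The lowest older sum was far above the highest younger one, and Hapln4 was 107-fold higher in older animals (LFC 6.74 ± 0.14 SE, adjusted p = 1.1e-14). Most of that difference fell between P9 and P23 (LFC 5.92 ± 0.20 SE, adjusted p = 2.8e-11). The smaller step from P2 to P9 had an LFC of 0.92 ± 0.27 (adjusted p = 0.0088) and lost its call with limma voom (adjusted p = 0.12).

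Hapln1, known as cartilage link protein and a component of cortical nets, rose a step earlier. Hapln1 was at 19.1, 1.33, 2.17, 4.06, and 2.73 CPM at P2, 41.2, 48.1, 57.1, and 21.4 CPM at P9, 56.9, 54.2, and 62.3 CPM at P23, and 44.95, 50.1, 52.7, and 50.4 CPM at P45. The high P2 value belongs to replicate 1, whose sum holds the library MEC LII P2 replicate 1, and the low P9 value to replicate 4. From P2 to P9 the LFC was 2.81 ± 0.53 (adjusted p = 0.00031), and 4.02 ± 0.26 (adjusted p = 9.4e-09) with that library left out, where the sum of P2 replicate 1 lacks MEC LII. In older against younger animals it was 1.75 ± 0.38 (adjusted p = 0.00047), and 2.37 ± 0.18 (adjusted p = 2.0e-09) without the library. From P9 to P23 Hapln1 did not pass the test (LFC 0.46 ± 0.55, adjusted p = 0.50).

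The tenascins changed in opposite directions. Tnc, the tenascin of radial glia and immature astrocytes, was at 694, 644, 489, 852, and 841 CPM at P2, 164, 189, 253, and 370.2 CPM at P9, 29.1, 32.1, and 20.05 CPM at P23, and 19.6, 35.7, 22.7, and 42.9 CPM at P45. The 3 ranges P2, P9 and P23 did not overlap, and all 7 older sums were below all 9 younger ones. Tnc was 14.5-fold lower in older animals (LFC -3.86 ± 0.23 SE, adjusted p = 1.6e-10), with -1.53 ± 0.26 (adjusted p = 0.00015) from P2 to P9 and -3.17 ± 0.33 (adjusted p = 6.9e-07) from P9 to P23. Within P9, replicate 4 was the highest for Tnc and Vcan and the lowest for Hapln1 and Hapln4.

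Tnr, a tenascin made by oligodendrocyte lineage cells and some interneurons, was at 138, 85.1, 81.5, 95.2, and 72.3 CPM at P2, 81.3, 86.9, 70.3, and 57.9 CPM at P9, 166, 209, and 161 CPM at P23, and 120.2, 168, 123, and 208 CPM at P45. The older sums overlapped the younger ones only through P2 replicate 1, which again holds the library MEC LII P2 replicate 1. Tnr was 1.99-fold higher in older animals (LFC 0.99 ± 0.14 SE, adjusted p = 9.3e-06), and its rise fell between P9 and P23 (LFC 1.27 ± 0.22 SE, adjusted p = 0.00012), since from P2 to P9 it did not pass (LFC -0.35 ± 0.19, adjusted p = 0.14). Without the library, the older-against-younger LFC was 1.12 ± 0.13 (adjusted p = 3.4e-07).

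Counted by step, 7 of the 8 genes differed between P2 and P9, 4 higher and 3 lower, where 54.0% of all genes were called, 27.7% higher and 26.3% lower. From P9 to P23, 7 of 8 differed, 3 higher and 4 lower, against a background of 55.8%, with 27.1% higher and 28.7% lower. Between P23 and P45, edgeR called 0 of 8, where 0.458% of all genes were called. One member, Hapln4, had an unadjusted p under 0.05 there (LFC 0.70 ± 0.16, adjusted p = 0.068), and DESeq2 and limma voom each called 1 of 8, again Hapln4, with adjusted p = 0.0040 and 0.0041, as did edgeR without the 5 deviating libraries (LFC 0.73 ± 0.16, adjusted p = 0.039). Each of the 4 Hapln4 sums at P45 was above each of the 3 at P23. The other 7 genes had LFCs between -0.29 (Vcan) and 0.18 (Acan) for this step, with no call.

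These changes went along with changes in cell type markers. Older animals had higher levels for 7 of 8 astrocyte markers, with 1 lower, the sum going from 585 to 2105 CPM at P2 to 3299 to 6196 CPM at P45 across libraries. All 8 of 8 mature oligodendrocyte markers were higher, from 94.8 to 177 CPM at P2 to 786 to 11846 CPM at P45, and Opalin was at 0 in every library of MEC LDeep P2, LEC LII P2, MEC LII P9 and LDeep P9. Markers of oligodendrocyte precursors went 2 higher and 1 lower of 6, with sums from 238 to 525 CPM at P2 and from 259.7 to 478 CPM at P45. Fast-spiking interneuron markers went 4 higher and 1 lower of 5 (179 to 387 CPM at P2, 248 to 536 CPM at P45), and all 3 markers of dividing cells fell (68.5 to 221 CPM at P2, 3.32 to 14.8 CPM at P45). Also higher in older animals were 3 of 3 general neuron, 2 of 3 GABAergic neuron, 4 of 4 microglia, 3 of 4 endothelial and 2 of 3 layer II neuron markers. Meningeal fibroblast markers went 1 higher and 3 lower of 10, and 3 of 6 deep-layer neuron markers fell. Over all genes 38.3% were higher and 39.0% lower. The part of cell composition in the age differences was not tested.

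Levels of different genes were compared per length, as CPM per kilobase of counted exon (RPKM) in the sums. At P2 neurocan and tenascin-C led, with 235 ± 30.5 RPKM (SD, n = 5) for Ncan and 114 ± 24.5 RPKM for Tnc, followed by Bcan at 63.6 ± 7.95, Vcan at 31.6 ± 5.26, Tnr at 14.7 ± 4.02, Hapln1 at 2.73 ± 3.47, Acan at 0.466 ± 0.0927 and Hapln4 at 0.171 ± 0.0381 RPKM. At P45 brevican led with 108 ± 10.04 RPKM (SD, n = 4), followed by Ncan at 57.4 ± 14.8, Hapln4 at 32.3 ± 4.896, Tnr at 24.1 ± 6.45, Hapln1 at 23.01 ± 1.52, Tnc at 4.91 ± 1.78, Vcan at 3.41 ± 0.703 and Acan at 1.03 ± 0.157 RPKM. The Hapln1 mean at P2 rests on replicate 1, whose sum holds the library MEC LII P2 replicate 1, and was 1.19 ± 0.531 RPKM over the other 4 sums, against 0.483 ± 0.09796 RPKM for Acan in the same sums. For neighbours in these orders, the ranges of mean ± SD overlapped for Hapln1 and Acan at P2, where they no longer did without replicate 1, and for Hapln4 and Tnr, Tnr and Hapln1, and Tnc and Vcan at P45. Hapln4 was the last of the 8 at P2 and P9 and in place 3 at P45. These orders assume that the counted exon length applies to every library, which splice forms could change.

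Within the lecticans, the composition of the summed RPKM shifted from neurocan to brevican. Ncan made up 70.9% ± 1.65 (SD) of it at P2 and 64.1% ± 1.33 at P9, but 35.1% ± 2.22 at P23 and 33.3% ± 3.59 at P45. Bcan made up 19.3% ± 2.399, 32.1% ± 2.53, 62.2% ± 2.48 and 64.1% ± 3.61 at the same ages, and Vcan went from 9.58% ± 1.45 at P2 to 1.998% ± 0.275 at P45. The share of Acan stayed small and went from 0.141% ± 0.0225 to 0.606% ± 0.0573. Among the tenascins the share of Tnr went from 11.7% ± 3.32 at P2 and 24.2% ± 8.92 at P9 to 86.4% ± 1.99 at P23 and 83.3% ± 1.63 at P45. Of the sum of the link proteins Hapln1 and Hapln4, Hapln4 made up 11.3% ± 6.87 at P2 and 1.59% ± 0.2097 at P9, but 42.5% ± 0.696 at P23 and 58.2% ± 4.09 at P45. The summed lectican level itself went from 330.3 RPKM at P2 to 170.2 RPKM at P45.

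**Figure D2:**
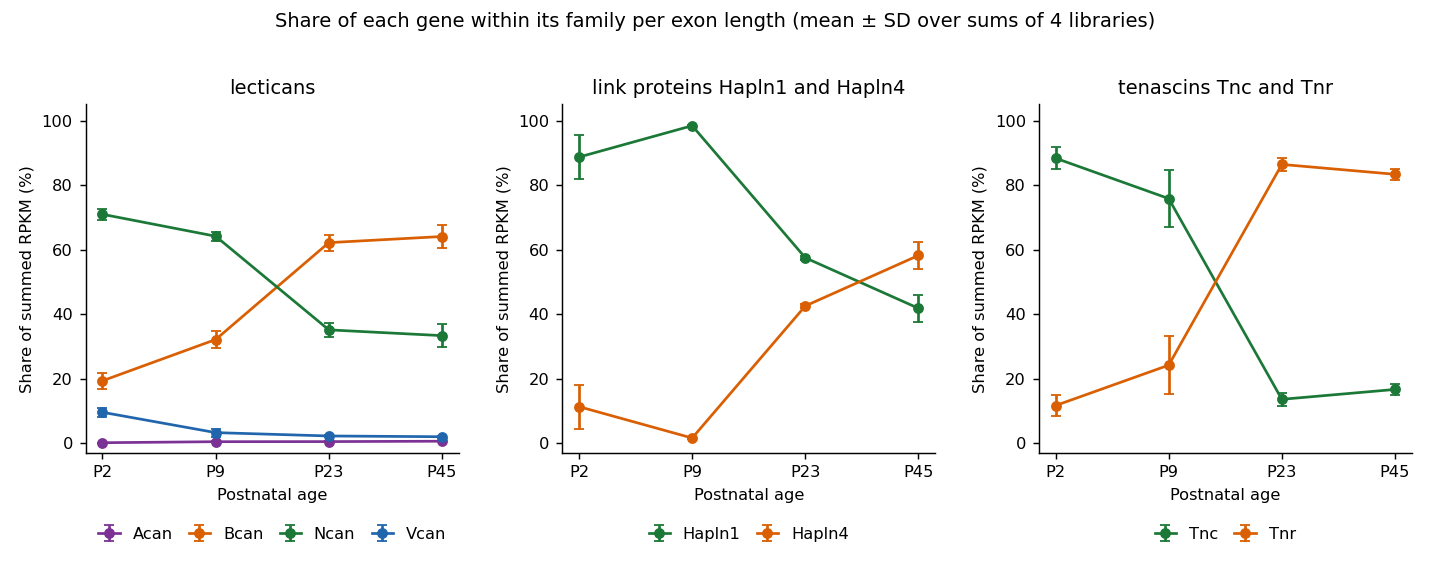
The share of each gene in the summed RPKM of its family (%) is plotted against postnatal age, as the mean with SD bars over the sums of 4 libraries (n = 3 to 5 per age), for the lecticans, the link proteins Hapln1 and Hapln4, and the tenascins. The lines of Ncan and Bcan and those of Tnc and Tnr cross between P9 and P23, and those of Hapln1 and Hapln4 cross between P23 and P45.

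The age comparison was repeated within each of the 4 dissected tissues, in a model of all 64 libraries and 12521 genes. In each tissue 7 of the 8 genes differed, 4 higher and 3 lower, with Acan the exception in all 4. The background was 66.5% in MEC LII, 66.2% in MEC LDeep, 62.7% in LEC LII and 64.5% in LEC LDeep. In that order of tissues, the older-against-younger LFC of Hapln4 was 7.72, 6.18, 6.498, and 5.79, and that of Tnc was -3.99, -3.82, -3.72, and -3.82. For Vcan it was -2.18, -1.79, -2.604, and -2.09, and for Ncan -1.997, -1.67, -1.73, and -1.36. For Hapln1 the LFC was 1.24, 2.35, 2.56, and 2.12, and in MEC LII it was 2.66 ± 0.23 (adjusted p = 1.3e-14) with the library MEC LII P2 replicate 1 left out. Bcan ranged from 0.52 in MEC LII to 0.69 in LEC LII, and Tnr from 0.82 in MEC LII to 1.22 in LEC LII. In MEC LII the Tnr value was 1.24 ± 0.22 (adjusted p = 2.8e-06) without the library MEC LII P2 replicate 1, and its call was lost without P23 replicate 2 (adjusted p = 0.066). For Acan the LFCs were 0.43, 0.42, 0.12, and 0.25, and in MEC LII the call was gained without MEC LII P2 replicate 1 (LFC 0.48 ± 0.21, adjusted p = 0.045) and, in both MEC tissues, without the 5 deviating libraries (LFC 0.52 ± 0.20, adjusted p = 0.020 in MEC LII and 0.54 ± 0.20, adjusted p = 0.016 in MEC LDeep).

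The second comparison asked which of these genes differed between LII and LDeep. Over all ages and both regions, Bcan, Ncan, Hapln1 and Tnc were up-regulated in LII and edgeR called none of the 8 higher in LDeep, where 54.0% of all genes were called, 23.5% higher and 30.5% lower in LII. Tnc had the largest difference (2.03-fold, LFC 1.02 ± 0.13 SE, adjusted p = 1.1e-09), followed by Hapln1 (1.65-fold, LFC 0.73 ± 0.20 SE, adjusted p = 0.0023), Bcan (1.51-fold, LFC 0.59 ± 0.058 SE, adjusted p = 1.0e-12) and Ncan (1.28-fold, LFC 0.36 ± 0.08 SE, adjusted p = 0.00016). The Hapln1 value depends on the library MEC LII P2 replicate 1, without which it was 0.38 ± 0.12 (adjusted p = 0.0050). In the 8 pairs of LII and LDeep groups matched for age and region, the LII mean was higher in 8 of 8 for Bcan, Ncan and Tnc and in 7 of 8 for Hapln1. The Hapln1 count includes the library MEC LII P2 replicate 1, without which its LFC at P2 went from 0.82 to -0.60. The libraries of such a pair did not overlap in 5 of 8 pairs for Bcan, 4 of 8 for Tnc and Hapln1, and 3 of 8 for Ncan. These counts of pairs, and the separations at single ages given below, were made for the 8 genes only. No share over all genes stands beside them.

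The remaining genes were not called between layers in the main edgeR fit. The LFC was 0.38 ± 0.18 (adjusted p = 0.068) for Hapln4, 0.23 ± 0.11 (adjusted p = 0.065) for Vcan, -0.072 ± 0.11 (adjusted p = 0.60) for Acan and -0.24 ± 0.14 (adjusted p = 0.13) for Tnr. The values for Vcan and Hapln4 passed in DESeq2 (adjusted p = 0.045 and 0.029), and that for Vcan in limma voom (adjusted p = 0.031). Vcan also passed in edgeR with a block for the replicate number (LFC 0.21 ± 0.079, adjusted p = 0.022). Acan was called lower in LII in limma voom, with a larger LFC of -0.33 ± 0.11 (adjusted p = 0.0093). Tnr was lower in LII in 7 of the 8 matched pairs of means, and was called lower when the library MEC LII P2 replicate 1 was left out (LFC -0.34 ± 0.11, adjusted p = 0.0081). In LEC, Tnr was at 52.3, 54.3, 48.1, and 69.5 CPM in LII and 91.2, 95.3, 132, and 80.7 CPM in LDeep at P9, and at 155, 117, and 132 CPM in LII and 164, 277, and 216 CPM in LDeep at P23, with LDeep above LII at both ages. Without the 5 deviating libraries, Vcan was called higher in LII (LFC 0.32 ± 0.11, adjusted p = 0.0081).

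By age, most calls between layers were at P9, although the difference between single ages was not tested. There 5 of 8 genes were higher in LII, namely Bcan, Ncan, Vcan, Hapln1 and Tnc, where 33.0% of all genes were called and 16.7% were higher. Tnc was at 205, 240.3, 441, and 604 CPM in MEC LII and 125, 99.9, 115, and 112 CPM in MEC LDeep, and at 306, 289.5, 291, and 762 CPM in LEC LII against 81.6, 112, 166, and 214 CPM in LEC LDeep. The layers did not overlap in either region, and the LFC was 1.62 ± 0.24 (adjusted p = 5.7e-07). Bcan was at 368, 429, 688, and 452 CPM in MEC LII and 273, 273, 281, and 191 CPM in MEC LDeep, and at 455, 418, 453, and 406 CPM in LEC LII against 204, 249, 232, and 232 CPM in LEC LDeep. Again the layers were apart in both regions (LFC 0.92 ± 0.11, adjusted p = 1.2e-08). Ncan was at 1039, 1221, 1731, and 1457 CPM in MEC LII and 777, 755, 648, and 476 CPM in MEC LDeep, and at 1110.0, 1031, 964, and 1401 CPM in LEC LII against 565, 589, 759, and 737 CPM in LEC LDeep, once more without overlap. The LFC at P9 was 0.90 ± 0.16 (adjusted p = 1.1e-05) for Ncan, 0.98 ± 0.37 (adjusted p = 0.033) for Hapln1 and 0.62 ± 0.21 (adjusted p = 0.019) for Vcan. The Hapln1 call at P9 was lost without any one of the 4 P9 replicates and in DESeq2 (adjusted p = 0.055), and that of Vcan without P9 replicate 4 (adjusted p = 0.15). Tnr at P9 had an LFC of -0.54 ± 0.27 (adjusted p = 0.12) and was called lower in LII in the fit without the 5 deviating libraries (LFC -0.54 ± 0.18, adjusted p = 0.014).

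At P2, 1 of 8 genes, Bcan, was higher in LII (LFC 0.31 ± 0.10, adjusted p = 0.026), where 19.2% of all genes were called and 10.8% were higher. This call was lost without P2 replicate 1 or 5, and without the library MEC LII P2 replicate 1 (LFC 0.28 ± 0.10, adjusted p = 0.052). In edgeR with a block for the replicate number, Bcan kept its call and Tnc gained one (LFC 0.43 ± 0.16, adjusted p = 0.041). With the 5 deviating libraries left out, 4 of 8 were called, Bcan, Ncan (LFC 0.47 ± 0.11, adjusted p = 0.0011), Vcan (LFC 0.63 ± 0.20, adjusted p = 0.013) and Tnc (LFC 0.80 ± 0.23, adjusted p = 0.0060). For Hapln1 at P2 the LFC went from 0.82 ± 0.48 (adjusted p = 0.24) with all libraries to -0.60 ± 0.30 (adjusted p = 0.16) without MEC LII P2 replicate 1, neither called.

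At P23, Hapln4 was among the genes that differed between layers. There 3 of 8 genes were higher in LII, Bcan (LFC 0.56 ± 0.13, adjusted p = 0.00083), Hapln4 (LFC 1.27 ± 0.23, adjusted p = 1.9e-05) and Tnc (LFC 0.82 ± 0.30, adjusted p = 0.034), against 25.9% of all genes called and 14.8% higher. Hapln4 was at 145, 136, and 166 CPM in MEC LII and 39.5, 40.8, and 43.2 CPM in MEC LDeep, and at 48.2, 68.4, and 81.2 CPM in LEC LII against 49.8, 47.7, and 24.9 CPM in LEC LDeep. The MEC layers were far apart, whereas the LEC layers overlapped. Whether the layer difference of Hapln4 differed between regions was not tested at single ages. The interaction of layer and region over all ages was not called for Hapln4. Without P23 replicate 3 the Bcan call at P23 was lost, and the Tnc call at P23 was lost without any one of the 3 replicates and with limma voom (adjusted p = 0.13).

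At P45, the same 3 genes were called, Bcan (LFC 0.57 ± 0.11, adjusted p = 9.1e-05), Hapln4 (LFC 0.61 ± 0.19, adjusted p = 0.013) and Tnc (LFC 1.19 ± 0.26, adjusted p = 0.00027), where 26.4% of all genes were called and 14.4% were higher. Hapln4 was at 220.3, 234, 205, and 287 CPM in MEC LII and 109, 97.02, 87.7, and 146 CPM in MEC LDeep, but at 60.6, 132, 62.97, and 40.8 CPM in LEC LII and 60.1, 77.7, 47.9, and 86.3 CPM in LEC LDeep, where the layers overlapped. Without P45 replicate 1, 2 or 3 the Hapln4 call was lost. Ncan at P45 had an LFC of 0.24 ± 0.16 (adjusted p = 0.28), and was called when the library LEC LDeep P45 replicate 4 was left out (LFC 0.46 ± 0.14, adjusted p = 0.0069) and in limma voom (LFC 0.42 ± 0.13, adjusted p = 0.011). Hapln1 at P23 was at 64.3, 62.5, and 76.4 CPM in MEC LII and 43.1, 45.3, and 52.3 CPM in MEC LDeep, and at 78.9, 75.3, and 71.1 CPM in LEC LII and 47.7, 41.4, and 54.3 CPM in LEC LDeep. Its layers did not overlap in either region at P23 or at P45, a separation looked at for the 8 genes only. Neither age was called with all libraries (LFC 0.59 ± 0.41, adjusted p = 0.33 and 0.52 ± 0.36, adjusted p = 0.31). Hapln1 was called at both ages without MEC LII P2 replicate 1, with an LFC of 0.60 ± 0.22 (adjusted p = 0.038) at P23 and 0.54 ± 0.19 (adjusted p = 0.032) at P45. Without all the deviating libraries, Hapln1 was called at P23 (LFC 0.55 ± 0.21, adjusted p = 0.038) but not at P45. That fit also leaves out LEC LDeep P45 replicate 4, which had the lowest Hapln1 of its group.

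**Figure D3:**
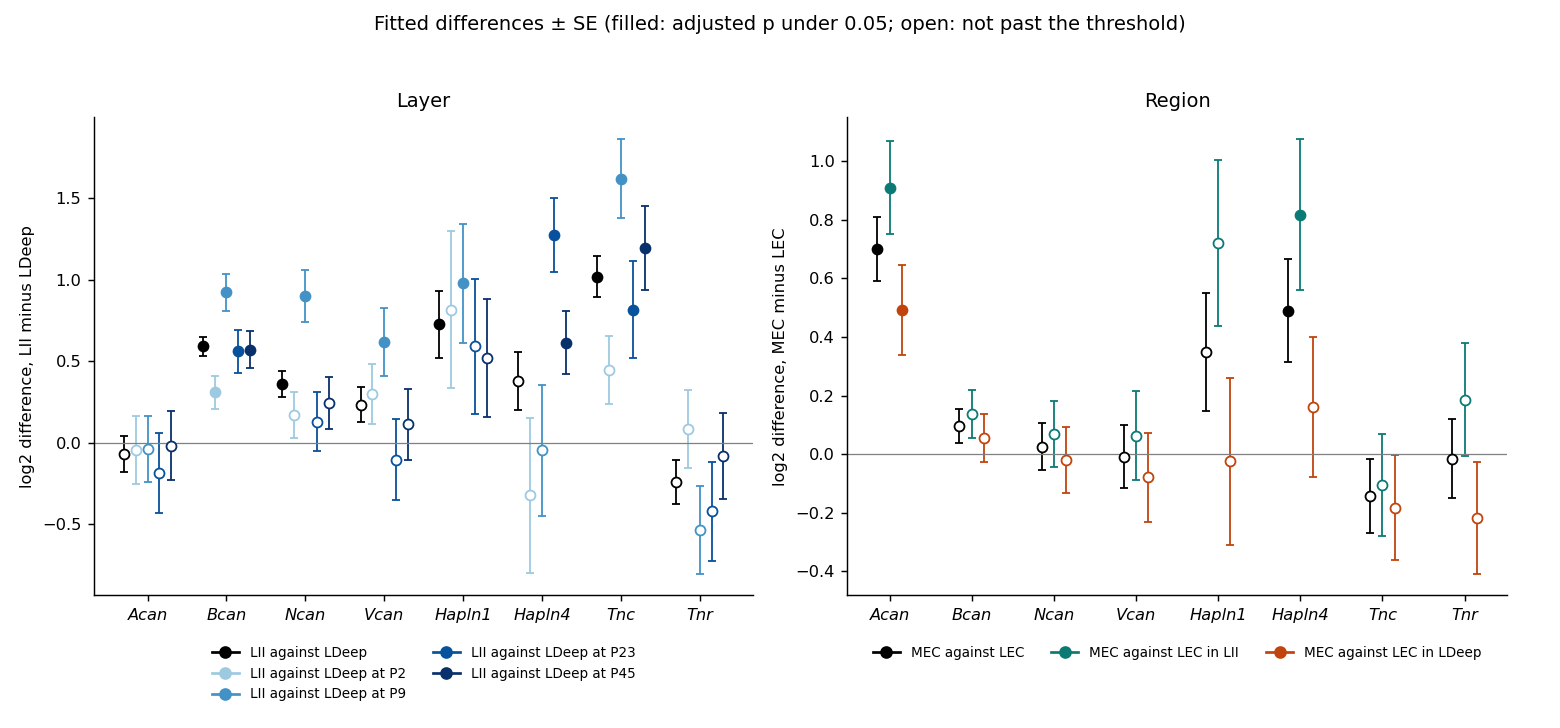
Fitted log2 differences with SE bars are plotted per gene, LII minus LDeep on the left (all ages together and each age) and MEC minus LEC on the right (both layers together and each layer), where filled points passed an adjusted p of 0.05 in edgeR and open points did not. Filled points of the layer panel are all above 0 and belong to Bcan, Ncan, Vcan, Hapln1, Hapln4 and Tnc, and those of the region panel belong to Acan and Hapln4.

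Markers of other cell types differed between LII and LDeep as well, where 54.0% of all genes were called, 23.5% higher and 30.5% lower in LII. In LII 7 of 8 astrocyte markers were higher, with sums from 2106 to 4085 CPM in LII and from 994 to 1939 CPM in LDeep at P9. Of 10 meningeal fibroblast markers 9 were higher and 1 lower in LII, with sums from 29.3 to 6958 CPM in LII and from 30.7 to 1540.2 CPM in LDeep, and 4 of 4 endothelial markers were higher (125 to 349 CPM against 93.5 to 231 CPM). All 3 of 3 markers of dividing cells were higher in LII, with sums at P9 from 71.1 to 128 CPM in LII and from 39.2 to 78.9 CPM in LDeep, as were 2 of 4 microglia markers (89.4 to 193 CPM against 57.5 to 119.9 CPM at P9) and 2 of 2 tested choroid plexus markers (0.379 to 46.4 CPM against 0 to 11.9 CPM). In LDeep 5 of 8 mature oligodendrocyte markers were higher, with sums from 2445 to 11846 CPM in LDeep and from 786 to 4771 CPM in LII at P45, as were 4 of 6 precursor markers, with 1 lower, and 3 of 3 general neuron markers. Each marker of these lists had counts in both layers. Of 5 fast-spiking interneuron markers, 0 were higher and 1 was lower in LII. EdgeR called 0 of 3 GABAergic neuron markers between layers, with 0 at an unadjusted p under 0.05. The part of all these markers in the laminar differences of the matrix genes was not tested.

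The third comparison asked which of the genes differed between MEC and LEC. Over all ages and layers 2 of 8 genes, Acan (1.63-fold, LFC 0.70 ± 0.11 SE, adjusted p = 2.3e-06) and Hapln4 (1.404-fold, LFC 0.49 ± 0.18 SE, adjusted p = 0.049), were higher in MEC and none was lower, where 15.4% of all genes were called and 8.87% were higher. For Acan the MEC mean was above the LEC mean in 8 of 8 matched groups, and the libraries did not overlap in 3 of 8. MEC libraries also lay above LEC libraries without overlap in 3 of 8 groups for Hapln4 and 1 for Ncan, and below them in 1 for Tnc. The share of all genes with such counts was not determined. In LII at P23, Acan was at 9.21, 8.33, and 7.97 CPM in MEC and 4.64, 2.11, and 4.38 CPM in LEC, and at P45 it was at 7.49, 11.9, 8.62, and 8.77 CPM in MEC against 4.55, 5.99, 2.901, and 5.82 CPM in LEC. At P9 in LII it was at 11.2, 14.7, 11.6, and 11.3 CPM in MEC and 3.801, 5.29, 4.94, and 8.103 CPM in LEC, so that the regions were separate in LII from P9 onwards. At P2 they overlapped, with 4.400, 3.203, 4.26, 3.75, and 2.08 CPM in MEC and 1.89, 4.01, 2.78, 2.97, and 2.29 CPM in LEC.

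Within LII, Acan (LFC 0.91 ± 0.16, adjusted p = 2.5e-05) and Hapln4 (LFC 0.82 ± 0.26, adjusted p = 0.027) were higher in MEC, 2 of 8 against 12.6% of all genes called and 8.38% higher. In LDeep at P9, Acan was at 15.7, 12.6, 8.28, and 7.200 CPM in MEC and 5.75, 5.83, 7.47, and 7.003 CPM in LEC, with overlap. Within LDeep 1 of 8, Acan (LFC 0.49 ± 0.15, adjusted p = 0.042), was higher, against 5.78% called and 2.81% higher. The Acan call in LDeep was lost in 7 of 16 fits that left out 1 replicate number of 1 age, and in limma voom (adjusted p = 0.059). The Hapln4 call over both layers was lost in 14 of these 16 fits, in limma voom (adjusted p = 0.12), with no filter on low counts (adjusted p = 0.054) without the library MEC LII P2 replicate 1 (LFC 0.41 ± 0.19, adjusted p = 0.14) and without the 5 deviating libraries (LFC 0.50 ± 0.21, adjusted p = 0.092). In LII it was lost without P2 replicate 1, P9 replicate 1, P9 replicate 3 or P23 replicate 1, without that library (LFC 0.66 ± 0.30, adjusted p = 0.14) and without the 5 (LFC 0.73 ± 0.34, adjusted p = 0.13). At P23 and at P45, with the values given above, every MEC LII library lay above every LEC LII library for Hapln4. The largest other regional difference was that of Hapln1 in LII (LFC 0.72 ± 0.28, adjusted p = 0.086, no call), which went to -0.00024 (adjusted p = 1.0) without MEC LII P2 replicate 1. In MEC 4 of 8 mature oligodendrocyte, 2 of 6 oligodendrocyte precursor and 1 of 8 astrocyte markers were higher. So were 1 of 3 GABAergic neuron, 1 of 3 general neuron and 1 of 4 endothelial markers. Lower in MEC were 1 of 4 microglia and 1 of 3 layer II neuron markers, and deep-layer neuron markers went 2 higher and 2 lower of 6. EdgeR called 0 of 5 fast-spiking interneuron markers, with 3 at an unadjusted p under 0.05 (148 to 499 CPM in MEC, 140.4 to 536 CPM in LEC). The part of these markers in the regional differences was not tested.

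Whether the age change differed between layers or regions was tested by interaction terms. For age and layer, 1 of 8 genes passed, where 8.80% of all genes were called. This was Hapln4, whose rise in older animals was larger in LII than in LDeep (log2 difference of the changes 1.13 ± 0.35, adjusted p = 0.030), and the call was lost in 8 of the 16 fits without a replicate. Without the 5 deviating libraries 3 of 8 passed, adding Ncan (LFC -0.41 ± 0.12, adjusted p = 0.010) and Vcan (LFC -0.62 ± 0.21, adjusted p = 0.035), both with a larger fall in LII. For age and region, edgeR called 0 of 8, with 1 at an unadjusted p under 0.05 (Hapln4, 0.81 ± 0.35, adjusted p = 0.22), where 4.38% of all genes were called. For layer and region, it called 0 of 8, with 0 at an unadjusted p under 0.05, where 1.25% of all genes were called. DESeq2 and limma voom each called 1 of 8 for age and layer, again Hapln4 (adjusted p = 0.0045 and 0.0091), and 0 of 8 for each of the other 2 interactions.

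Of the 4 pairs of genes that sit side by side in the genome, 3 changed in opposite directions between younger and older animals and 1 in the same direction. Over all genes 38.3% were higher and 39.0% lower in older animals, so that opposite directions are common among any called genes. The share of opposite pairs among other neighbouring genes was not counted. Ncan and Hapln4, separated by 4669 bases and transcribed towards each other, had Pearson's r = -0.883 between their log2 CPM over the 64 libraries. Vcan and Hapln1, separated by 73633 bases, had r = -0.8601. Among members that are not neighbours, Ncan and Tnc (r = 0.953) and Vcan and Tnc (r = 0.939) had the closest profiles, and Hapln4 and Tnc had r = -0.897. These coefficients describe libraries that share ages, tissues and depth, and are given without a test. In the contrast of the age classes Acan rose and Hapln3 fell (LFC -0.51 ± 0.14 SE, adjusted p = 0.0030), with r = -0.0234 over the libraries. From P9 to P23 Acan fell as well, as given above. Bcan and Hapln2 both rose (r = 0.515), Hapln2 being at 0 in 23 of the 64 libraries. Hapln2, a link protein of myelinated nodes, was at 0 to 0.302 CPM in the sums at P2 and 9.63 to 17.7 CPM at P45 (LFC 6.16 ± 0.38 SE, adjusted p = 2.4e-10).

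**Figure D4:**
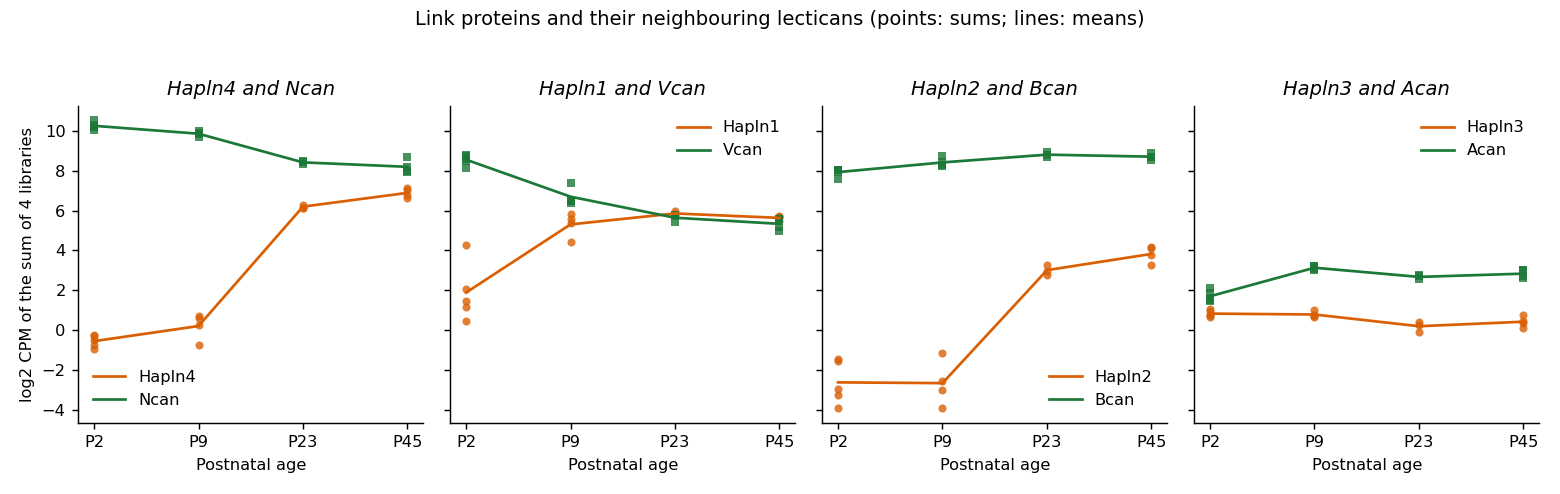
The log2 CPM of the sums of 4 libraries is plotted against postnatal age for the 4 pairs of link protein (circles) and neighbouring lectican (squares), with lines through the means and a prior count that keeps sums at 0 on the scale. Hapln4 goes up while Ncan goes down, Hapln1 goes up while Vcan goes down, Hapln2 goes up after P9 with Bcan already high, and Hapln3 stays below Acan at each age.

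Genes that make, cut or bind this matrix were followed as fixed lists. Their counts stand against 77.3% of all genes called between older and younger animals (38.3% higher, 39.0% lower), 54.0% between layers (23.5% higher and 30.5% lower in LII) and 15.4% between regions (8.87% higher in MEC). Of the relatives outside the 8, Hapln2, Hapln3 and Tnn were in the tables, and in older animals 1 of 3 (Hapln2) rose and 2 fell, Tnn among them (LFC -0.56 ± 0.19 SE, adjusted p = 0.014). Between layers 1 of these 3, Tnn, was called, lower in LII (LFC -1.75 ± 0.18 SE, adjusted p = 2.0e-12). Of 7 tested hyaluronan synthases and hyaluronidases, 6 fell and 1 rose in older animals, with a median LFC of -0.46 against -0.0075 for all genes. The hyaluronan synthase Has3 fell the most, from 15.9 to 31.5 CPM at P2 to 1.25 to 1.68 CPM at P45 (LFC -3.11 ± 0.20 SE, adjusted p = 3.5e-10), and the hyaluronidase Hyal1 was the one that rose (LFC 1.99 ± 0.12 SE, adjusted p = 2.2e-10). In LII 1 of 6 was higher (Hyal1, LFC 0.49 ± 0.10 SE, adjusted p = 6.3e-05) and 1 lower (Tmem2, LFC -0.51 ± 0.056 SE, adjusted p = 3.2e-11), and between regions edgeR called 0 of 6, with 0 at an unadjusted p under 0.05.

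Of 18 tested genes for chondroitin sulfate synthesis and sulfation, 7 rose and 6 fell in older animals, with a median LFC of -0.00073, so that 13 of 18 were called where 77.3% of all genes were. The uronyl sulfotransferase Ust rose the most (LFC 0.73 ± 0.18 SE, adjusted p = 0.0018) and the linkage galactosyltransferase B3galt6 fell the most (LFC -0.82 ± 0.059 SE, adjusted p = 1.9e-09). Between layers 6 were higher in LII, led by the dermatan sulfotransferase Chst14 (LFC 1.36 ± 0.12 SE, adjusted p = 2.9e-14), and 4 lower, led by the chondroitin sulfotransferase Chst11 (LFC -0.36 ± 0.062 SE, adjusted p = 1.8e-06). Between regions 2 were higher in MEC and 0 lower.

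Of 13 lectican-cleaving proteases and their inhibitors, 6 rose and 5 fell in older animals (median LFC 0.28), 11 of 13 called against 77.3% of all genes. Adamts4, a protease known to cleave aggrecan and brevican, rose the most, from 0.846 to 1.56 CPM at P2 to 19.1 to 22.5 CPM at P23 and a lower 7.48 to 9.98 CPM at P45 (LFC 3.45 ± 0.17 SE, adjusted p = 2.0e-11), and the membrane metalloprotease Mmp14 fell the most (LFC -1.603 ± 0.10 SE, adjusted p = 5.1e-10). Between layers 9 of 12 tested were higher in LII, where 23.5% of all genes were, and 1 was lower (median LFC 0.69 against -0.048 for all genes), with the metalloprotease inhibitor Timp1 at LFC 2.34 ± 0.16 SE, adjusted p = 2.6e-18 and Timp2 at LFC -0.27 ± 0.053 SE, adjusted p = 2.0e-05. Meningeal and endothelial markers were higher in LII too, as given above, and their part in this was not tested. Between regions 3 of 12 were higher in MEC and 1 lower.

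Of 11 receptors for chondroitin sulfate or tenascins and other membrane proteoglycans, 2 rose and 5 fell in older animals (median LFC -0.13). The Nogo receptor family member Rtn4rl1 rose the most (LFC 0.76 ± 0.082 SE, adjusted p = 2.7e-07), and Ptprz1, the receptor phosphatase of glial cells that binds tenascins, fell the most (LFC -1.23 ± 0.12 SE, adjusted p = 7.8e-08). Between layers 4 were higher in LII, led by the hyaluronan receptor Cd44 (LFC 0.62 ± 0.17 SE, adjusted p = 0.0016), and 2 lower, led by the adhesion molecule Cntn1 (LFC -0.33 ± 0.045 SE, adjusted p = 1.1e-08). Between regions 1 was higher in MEC and 2 were lower.

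Over the 64 libraries, the genes with the profile most like each member were found by Pearson's r of log2 CPM among 11897 genes with a mean of at least 1 CPM. For Bcan they were Slc9a3r1 (0.919), Gfap (0.916), and Zcchc24 (0.895), of which Gfap is the intermediate filament of astrocytes. For Ncan they were Slc7a5 (0.954), Tnc (0.953), and Igsf3 (0.952), and for Tnc Igsf3 (0.967), Timeless (0.965), and Mtss1 (0.963), so that Igsf3 was on both lists. For Vcan they were Map4k4 (0.963), Kdm4a (0.956), and Cttnbp2nl (0.953). For Hapln1 the nearest were Fam163a (0.959), Gpr37l1 (0.954), and Grin2c (0.946), of which Gpr37l1 is a receptor of astrocytes and Grin2c an NMDA receptor subunit. For Hapln4 they were Cbx7 (0.9697), Nat8l (0.968), and Jade2 (0.966), where Nat8l makes N-acetylaspartate in neurons, and for Tnr Sik3 (0.902), Sorbs2 (0.883), and Kcnj6 (0.882). Acan had the weakest likeness, with Abcb9 (0.804), Rab6b (0.7697), and Abca7 (0.764). The libraries share ages and tissues, so that any gene with the same course over age scores high.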

How the data were processed

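Ribosomal RNA-depleted total RNA of 64 libraries was measured. The authors demultiplexed the reads with bcl2fastq 1.8.4, trimmed them with Trimmomatic 0.33, aligned them to rn6 with STAR 2.4.0 and deposited raw counts per gene from featureCounts (Subread 1.4.6-p1), which were the only values used. Groups followed the labels.

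Counts were tested with the quasi-likelihood test of edgeR 4.0.16 in R 4.3.3, with TMM normalization, filterByExpr and Benjamini-Hochberg adjustment over all genes. Age was tested on 16 sums of the 4 libraries that share an age and a replicate number (13092 genes), and all other contrasts on the 64 libraries with 16 group means (12521 genes). SE is the absolute LFC divided by the square root of the F statistic. CPM uses TMM library sizes, log2 CPM a prior count of 2, and RPKM the counted exon length. Total counts were from 3894334 to 11439143, and intervals cover no more than the spread between samples. The closest replicates differed by 3.17 times counting noise (chi-square per degree of freedom), so that no library was counted as a duplicate. Alternatives were RLE size factors, DESeq2 1.42.0, limma voom (limma 3.58.1) with quantile normalization, no filter on low counts, the 64-library fit for age, a replicate block and leaving out replicates. Leaving out deviating libraries was chosen after seeing the data. In the age test the sum was then made from the remaining libraries of that number, so its mix of tissues differed from that of the other sums. Without the 5 deviating libraries the sum of P2 replicate 1 held LEC only. The scripts were tested on simulated data.

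The 8 genes and the lists were chosen with earlier results of these data known. Named besides them are the 3 genes with the highest Pearson's r with each member among 11897 genes, and from each list the gene with the largest rise and the largest fall past the threshold. The listed genes Tnxb, Cemip, Xylt1, Chsy3, Dsel, Adamts8, Adamts20 and Itga9 had no row under these symbols and were not analysed here, and Cemip2 was counted under its older symbol Tmem2. Upstream sequences are from RefSeq on GRCr8, a later assembly than that of the counts, and no coordinates were converted.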

Additional observations from a re-analysis of the deposited data

Results flagged for a closer look

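A library was singled out where its gap to the nearest library of its group, divided by the range of the group, was above Dixon's 95% critical value. Of 96 sets of 4 or 5 libraries examined for the 8 genes, 12 held such a library, where chance alone gives about 1 in 20. All values here are log2 CPM, followed by the range of the other libraries of the group.

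Of the 12, 5 were in P9 libraries with replicate number 4. In MEC LII P9 replicate 4, Vcan was the highest (7.45 against 6.65 to 6.71) and Hapln4 the lowest (-0.87 against 1.03 to 1.19). In LEC LII P9 replicate 4, Tnc was the highest (9.57 against 8.18 to 8.26) and Hapln1 the lowest (4.72 against 5.897 to 6.02). In MEC LDeep P9 replicate 4, Bcan was the lowest (7.58 against 8.09 to 8.13).

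Another 4 were in the libraries that deviated over all genes. MEC LII P2 replicate 1 had the highest Hapln1 (5.83 against -0.032 to 1.57) and Tnr (8.297 against 5.67 to 6.32), and LEC LDeep P45 replicate 4 the highest Ncan (9.19 against 7.66 to 7.82) and the lowest Hapln1 (4.62 against 5.34 to 5.46). The remaining 3 were a high Acan in MEC LII P9 replicate 2 (3.902 against 3.52 to 3.57), a high Vcan in MEC LDeep P45 replicate 2 (5.81 against 4.99 to 5.11) and a low Tnr in LEC LII P2 replicate 1 (5.37 against 6.35 to 6.63).

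The rise of Hapln4 from younger to older animals differed between layers, being larger in LII by 1.13 ± 0.35 (adjusted p = 0.030) on the log2 scale in the interaction test of edgeR with BH adjustment. This call was lost in some of the fits that left out a replicate number, as given above. The lowest Hapln4 counts in a library were 0 at P2 and 2 at P9.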

How the results depend on the processing

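Of 152 member results, each one called with all libraries kept its direction under every alternative run, while 33 that were not called changed sign in at least 1 alternative fit, none of them with a call there. The largest such change was that of Hapln1 LII against LDeep at P2, from 0.82 to -0.61 without P2 replicate 1. RLE size factors changed no call, and DESeq2 changed 4, limma voom 9 and the absence of a filter 1. For P45 against P23, DESeq2, limma voom, the 64-library fit and the fit without the 5 deviating libraries each called 1 of 8 in place of 0. For LII against LDeep at P2, the replicate block called 2 in place of 1, the fit without MEC LII P2 replicate 1 called 0 and that without the 5 libraries 4. For MEC against LEC, limma voom, no filter, leaving out MEC LII P2 replicate 1 and leaving out the 5 libraries each called 1 in place of 2, and within LII the last 2 of these also called 1 in place of 2. Within LDeep, limma voom called 0 in place of 1. For age and layer, the fit without the 5 libraries called 3 in place of 1. The cause of these changes was not tested.

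Leaving out each replicate number of an age in turn, the calls ranged from 0 to 1 for P45 against P23 (1 without P9 replicate 4), from 0 to 1 for layers at P2, from 3 to 6 at P9 (3 without P9 replicate 4), from 1 to 4 at P23 (1 without P23 replicate 3) and from 2 to 4 at P45. They ranged from 1 to 2 for MEC against LEC, from 1 to 3 within LII, from 0 to 1 within LDeep and from 0 to 1 for age and layer. Of the member values in these fits, 2365 kept their call, 16 gained and 51 lost one.

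The replicate numbers share only a number in the labels. Libraries of different tissue with the same number deviated together weakly, with a mean r of 0.126 to 0.143 in 3 kinds of pair (32 each) and 17 to 20 of the 32 over 0.1, against -0.0452 to -0.0391 for different numbers. With the replicate block, Vcan LII against LDeep (LFC 0.21 ± 0.079, adjusted p = 0.022) and Tnc at P2 (LFC 0.43 ± 0.16, adjusted p = 0.041) gained a call, and it changed no other member call.

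Counts over all genes moved by over 1.5 times for P45 against P23 (60, but 212 with DESeq2, 482 in the 64-library fit, 94 without the 5 libraries and 11 to 38 without P23 replicate 1, 2 or 3 or P45 replicate 1 or 3), layers at P2 (2409, but 1437 without P2 replicate 2), P23 (3239, but 2108 and 2065 without P23 replicates 2 and 3) and P45 (3310, but 5119 without the 5 libraries), age and layer (1102, but 1887 without the 5), age and region (548, but 302 and 347 without P23 replicates 1 and 3), and layer and region (156, but 286 with the block, 342 without the 5 and 63 to 101 without P9 replicate 4, a P23 replicate or P45 replicate 1). The lowest counts in a library were 12 for Acan, 4 for Hapln1 at P2 and 0 and 2 for Hapln4 at P2 and P9, which limits the precision of these values.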
